A study of Mus musculus with 5 samples.

Results

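Pdcd1+ Havcr2+ CD8 T cells are cytotoxic T cells that carry messenger RNA of 2 inhibitory receptors, PD-1 (gene Pdcd1) and TIM-3 (gene Havcr2), and are commonly called exhausted. In the 2 libraries of tumor T cells analysed here, 400 cells met the definition, 194 from doxorubicin (DOX) sensitive and 206 from DOX resistant tumors. They were 400 of 3144 CD8+ cells, of 6810 cells kept after quality filtering, and of 11119 barcodes in the 5 libraries of the series. The cells were chosen by their own counts of unique molecular identifiers (UMIs, which count captured RNA molecules). Kept cells had 500 or more detected genes and no more than 10% of UMIs from mitochondrial genes. A member had at least 1 UMI of Cd3d, Cd3e or Cd3g, at least 1 of Cd8a or Cd8b1, none of Cd4, and at least 1 each of Pdcd1 and Havcr2. The summed UMIs of Gzmd, Gzme, Gzmf and Gzmg had to be under 3, and fewer than 2 of the cell cycle genes Mki67, Top2a, Birc5, Ccna2 and Ube2c could be detected. Levels of these genes in the chosen cells are therefore a description.

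The tumors were grown from 4T1-Thy1.1 cells, a mouse mammary cancer line used as a model of triple-negative breast cancer, in the mammary fat pad of female BALB/c mice. Mice of both T cell groups had received DOX, an anthracycline that blocks topoisomerase and damages DNA, in 3 intravenous doses of 5 mg/kg given 3 days apart, and were 12 weeks old per the labels. Sensitive tumors are those whose growth slowed under DOX, and resistant tumors grew on. No T cell library came from untreated mice, so the comparison is between 2 treated groups. T cells were enriched by magnetic depletion of other cells and of Thy1.1+ cells, and those of 3 tumors were pooled into each library. Each group was thus 1 library, differences have no replicate check, and no test between the groups can be made. Brackets after a value give a 95% interval (exact Clopper-Pearson for shares, exact Poisson for levels, exact conditional binomial for ratios of levels, a log-scale interval for ratios of shares), which covers counting error only.

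CD8 T cells that meet their antigen for a long time, as in tumors, keep PD-1 and TIM-3 at their surface. PD-1 dampens signals from the T cell receptor, and TIM-3 marks the more advanced stage of this state. The state is known for further inhibitory receptors, for the transcription factor TOX, which maintains it, and for the loss of TCF-1 (gene Tcf7), which marks less differentiated cells that can renew the pool.

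The 2 libraries differed in quality before any comparison. The sensitive library had 3949 barcodes and 31690845 UMIs and the resistant one 6116 and 35908799, and the filters removed 9.85% and 46.9% of barcodes. Members had medians of 4749 (sensitive) and 5835.5 (resistant) UMIs, 1736 and 1878 genes, and mitochondrial shares of 2.32% and 5.39%. The libraries shared 31 barcodes, none of them a member. A member with at least 2 detected markers of macrophages, neutrophils, fibroblasts or cancer cells was called mixed, which applied to 25 sensitive and 17 resistant members.

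The Pdcd1+ Havcr2+ cells made up 13.7% (12.0 to 15.6) of CD8+ cells in sensitive and 11.9% (10.4 to 13.5) in resistant tumors. Because a gene is found more often in a deeply sequenced cell, every cell was also reduced by random draws to 2000 UMIs and the definition applied again, without the 121 sensitive and 91 resistant CD8+ cells that had fewer. The shares were then 92 of 1314 CD8+ cells, or 7.0% (5.68 to 8.52), and 90 of 1634, or 5.51% (4.45 to 6.73). Their ratio was 1.27 (0.959 to 1.68), so a difference in abundance was not detectable at this depth. The ratio was above 1 at each depth tried, from 1.15 without thinning to 1.72 (1.05 to 2.82) at 1000 UMIs, where the shares rest on 38 and 26 cells.

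**Figure D1:**
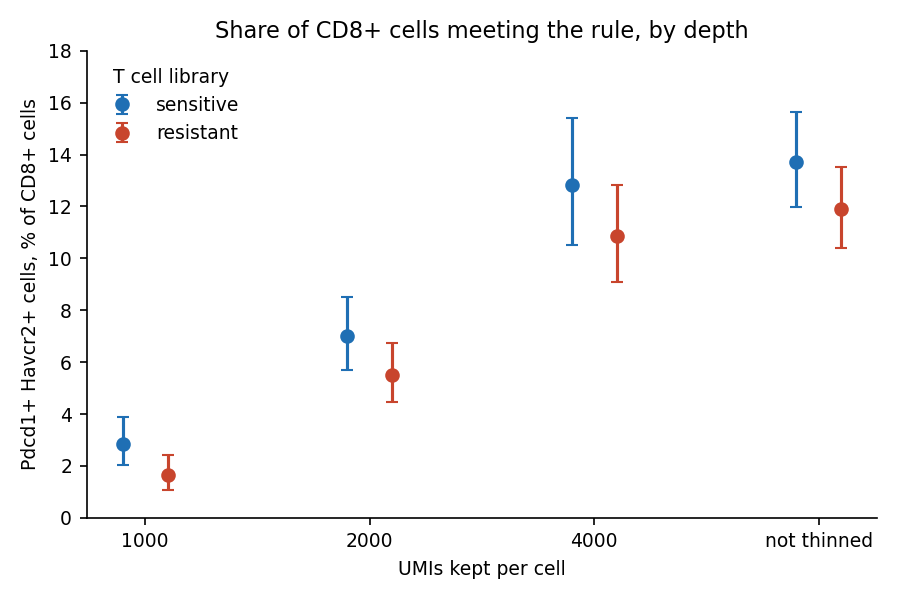
Share of CD8+ cells that met the definition (y axis, percent) with each cell thinned to 1000, 2000 or 4000 UMIs or not thinned (x axis), in the sensitive and the resistant T cell library; points are shares and bars are 95% Clopper-Pearson intervals. The sensitive value is the higher at each depth, and the intervals overlap.

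The conditions on granzymes and the cell cycle removed different parts of the double-positive cells. Pdcd1 and Havcr2 were both found in 231 sensitive and 323 resistant CD8+ cells. Cycling cells were 25 of the sensitive, or 10.8% (7.13 to 15.6), and 81 of the resistant, or 25.1% (20.4 to 30.2). Cells with 3 or more UMIs of Gzmd to Gzmg, a cluster of closely related granzyme genes, were 14, or 6.06% (3.35 to 9.96), and 49, or 15.2% (11.4 to 19.6). With thinning to 2000 UMIs, cycling cells were 1 of 96 sensitive (0.0264% to 5.67%) and 7 of 106 resistant (2.70% to 13.1%) double-positive cells. Those with Gzmd to Gzmg were 3 of 96 (0.649% to 8.86%) and 10 of 106 (4.62% to 16.7%), so the intervals overlapped at this depth. Before these conditions, the double-positive share of CD8+ cells was 16.3% for sensitive and 18.7% for resistant tumors without thinning, a ratio of 0.876 (0.751 to 1.02). With thinning to 2000 UMIs it was 7.31% and 6.49%, so the side of 1 on which this ratio fell depended on depth.

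Just inside and outside the limits, 43 sensitive and 51 resistant members had 1 detected cell cycle gene, and 4 and 18 double-positive cells were left out with 2. The limit on granzymes had 2 sensitive and 4 resistant members at a sum of 2 UMIs and 0 and 2 excluded cells at 3. Pdcd1 had a median of 3 UMIs per member in both libraries, with 40 sensitive and 46 resistant members at 1 UMI. Havcr2 had a median of 2 UMIs in sensitive and 1 in resistant members, with 87 and 129 members at 1 UMI. The definition thus rests on a single Havcr2 molecule in 44.8% of sensitive and 62.6% of resistant members. Summed over members and expressed per 1000000 UMIs (CPM), Pdcd1 reached 668 (623 to 716) and 568 (528 to 611), and Havcr2 322 (291 to 356) and 250.1 (224 to 279).

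To measure free RNA, the same genes were counted in cells that should lack them. In 778 sensitive and 579 resistant fibroblast-gated cells, thinned to 2000 UMIs from medians of 14098.5 and 13945 UMIs, Pdcd1 was found in 0.129% and 0.173% and Havcr2 in 0.129% and 0.345%. In macrophage-gated cells Havcr2, which these cells can also express, was found in 4.43% and 6.80% and Pdcd1 in none of 158 and 147 cells, which allows up to 1.90% and 2.04%.

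Lineage genes, which the definition used, are a description only: Cd8a and Cd8b1 each had a UMI in over 99% of members, and all 3 Cd3 genes were found in 98.5% of sensitive and 99.5% of resistant members. Of the markers named for exhausted cells, Lag3 and Tox were not part of the definition. Both were higher in members than in the CD8+ cells with neither Pdcd1 nor Havcr2 that met all other conditions (538 sensitive and 453 resistant cells, called double-negative here). Lag3 (ENSMUSG00000030124, chromosome 6, 124904361 to 124911705, minus strand, GRCm38), whose product is an inhibitory receptor for MHC class II, reached 799 (750 to 851) CPM in sensitive and 392 (359 to 428) CPM in resistant members. In double-negative cells it reached 136 and 191 CPM, so the ratios of members over double-negative cells were 5.87 (5.14 to 6.71) and 2.05 (1.79 to 2.35). Tox (ENSMUSG00000041272, chromosome 4, 6686353 to 6991557, minus strand) reached 155 (134 to 179) and 157 (136 to 180) CPM in members against 41.5 and 57.7 CPM, ratios of 3.74 (2.89 to 4.88) and 2.72 (2.15 to 3.45).

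The comparison with double-negative cells asked what the definition brings with it beyond its own genes, and was made within each library. In what follows a pair of ratios gives the sensitive value first. Over 5851 genes tested (at least 50 UMIs in the cells compared in each library), the median ratio was 1.01 and 0.990. At least 2-fold higher in members of both libraries were 51 genes, or 0.872%, and 87 genes, or 1.49%, were at least 2-fold lower in both. Without the mixed cells of both classes, the counts were 49 and 34. Double-negative cells were shallower than members, with medians of 3448 and 3677 UMIs, so leading ratios were repeated among cells of 3000 to 10000 UMIs.

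Several inhibitory receptors were higher in members. Of 13 listed genes tested, 3 were at least 2-fold higher in both libraries and none lower, and the median ratio was 2.13 and 1.33. The 3 were Lag3, Entpd1 (2.34 and 2.47), which encodes the ATP-degrading enzyme CD39, and Cd200 (5.18 and 2.53), an immunoregulatory membrane protein. Tigit, a receptor for nectins, had 2.95 and 1.96, and Ctla4, which competes with CD28 for its ligands, 2.54 and 1.89. Cd160 (0.90 and 1.26) and Lilrb4a (0.99 and 1.01) stayed near 1. Among cells of 3000 to 10000 UMIs, Lag3 had 7.34 and 2.01, Tigit 3.58 and 1.81, and Tox 4.83 and 2.71.

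Several of these receptors were found in the same cells. Of Lag3, Tigit, Ctla4, Cd160, Entpd1 and Cd244a, members thinned to 2000 UMIs showed a mean of 2.36 genes (SD over cells 1.11, 191 cells) in sensitive and 1.59 (SD 1.17, 204 cells) in resistant tumors. Sensitive members had at least 2 of the 6 in 76.4% (69.8 to 82.3) of cells and resistant members in 49.5% (42.5 to 56.6), and none in 3.66% and 19.1%. In double-negative cells the shares with at least 2 were 26.2% (22.2 to 30.5) and 26.0% (21.8 to 30.6). Cells with Pdcd1 alone showed 57.6% (53 to 62.0) and 46.9% (43.1 to 50.7), and the few cells with Havcr2 alone 75.6% (59.7 to 87.6, 41 cells) and 29 of 58 cells. The intervals of sensitive and resistant cells do not overlap for members or for cells with Pdcd1 alone. They overlap for cells with Havcr2 alone and coincide for double-negative cells. Among resistant cells, members and cells with Pdcd1 alone did not differ beyond counting error.

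**Figure D2:**
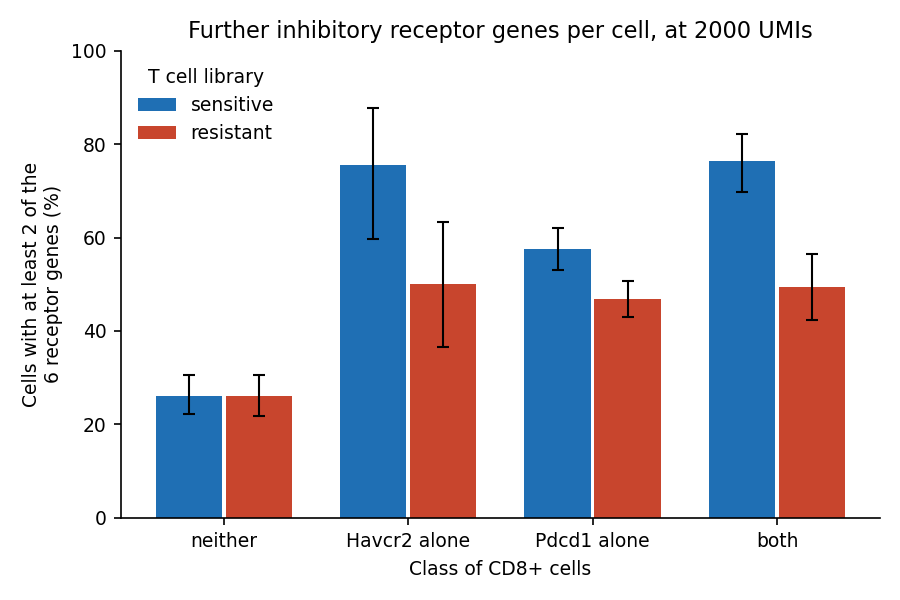
Percent of CD8+ cells in which at least 2 of the 6 genes Lag3, Tigit, Ctla4, Cd160, Entpd1 and Cd244a were found at 2000 UMIs per cell (y axis), by whether Pdcd1 and Havcr2 were found (x axis; both marks the members) in the sensitive and the resistant library; error bars are 95% Clopper-Pearson intervals. The bars of double-negative cells stand at 26.2% and 26.0%, and those of members at 76.4% and 49.5%.

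Among transcription factors linked to the state, 3 of 14 tested were at least 2-fold higher in members of both libraries and none was lower, with median ratios of 1.66 and 1.56. They were Tox, Nr4a2 (4.42 and 2.31) and Nr4a3 (2.13 and 2.59), the last 2 being nuclear receptors induced by T cell receptor signals. Prdm1, which encodes the effector regulator BLIMP-1, had 6.26 and 1.84. Eomes (1.15 and 1.42) and Irf4 (1.38 and 1.17) were nearer to 1. Tox2 had 15 and 2 UMIs in members, too few to be tested.

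Among naive and progenitor-like genes, Tcf7 was scarce in members. Tcf7 (ENSMUSG00000000782, chromosome 11, 52252371 to 52283014, minus strand) had 5 UMIs in 194 sensitive and 3 in 206 resistant members, or 4.13 (1.34 to 9.63) and 2.29 (0.473 to 6.71) CPM. Double-negative cells had 65.5 and 32.5 CPM, so the ratios were 0.063 (0.020 to 0.151) and 0.071 (0.014 to 0.216). Cells with Pdcd1 alone lay between, at 19.8 and 14.5 CPM. Cells with Havcr2 alone had 5.31 (0.134 to 29.6) and 6.16 (0.746 to 22.3) CPM, from 1 and 2 UMIs. They could not be told from members beyond counting error. Of the 14 listed genes 7 had enough UMIs, and Tcf7 was the only one of them at least 2-fold lower in both libraries. Il7r, the receptor of a survival cytokine, had 0.74 and 0.75 and was found in 65 of 191 and 51 of 204 thinned members. Slamf6, a further progenitor marker, had 9 and 3 UMIs in members.

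Perforin and interferon gamma genes were higher in members. Prf1, which encodes the pore-forming perforin, had ratios of 9.02 (7.58 to 10.8) and 3.46 (2.76 to 4.37). Ifng, which encodes interferon gamma, had 3.17 (2.83 to 3.55) and 2.69 (2.31 to 3.15). Gzmb, the main granzyme of effector cells, had 2.74 (2.60 to 2.89) and 1.29 (1.19 to 1.40). Gzma, another granzyme, went in opposite directions, at 2.04 and 0.57, and 553 of its 1654 UMIs in sensitive members came from 1 cell. Tnf was at 0.36 and 0.93. Of 11 cytotoxic genes tested, 2 were at least 2-fold higher in both libraries, Prf1 and Gzmc, and Gzmc rests on few cells, with 96.6% of its sensitive UMIs in a single cell. Reads of closely related granzyme genes can be hard to tell apart, which leaves Gzmc uncertain in a further way.

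Levels in cells with only 1 of the 2 receptors were set beside those of members. Gzmb reached 980 and 336 CPM in cells with Pdcd1 alone but 3347 and 1223 CPM in the 49 and 59 cells with Havcr2 alone, beside 1057 and 650 CPM in double-negative cells. Prf1 reached 194 and 76.2 CPM with Pdcd1 alone and 499 and 126 CPM with Havcr2 alone, and Ccl3 469 and 133 CPM against 935 and 308 CPM. The CPM of each was thus higher in cells with Havcr2 alone than in cells with Pdcd1 alone, in both libraries. The shares of thinned cells with a UMI had separate intervals for Gzmb, at 68.3% (51.9 to 81.9) against 35.2% (30.9 to 39.6) in the sensitive and 44.8% (31.7 to 58.5) against 20.4% (17.4 to 23.6) in the resistant library. For Prf1 the intervals overlapped, at 41.5% (26.3 to 57.9) against 25.7% (21.8 to 29.8) and 24.1% (13.9 to 37.2) against 11.9% (9.60 to 14.6). For Ccl3 they also overlapped, at 36.6% (22.1 to 53.1) against 22.2% (18.5 to 26.1) and 19.0% (9.87 to 31.4) against 10.8% (8.53 to 13.3), and 46 of its 100 UMIs in resistant cells with Havcr2 alone came from 1 cell. Tox was not, at 109 and 116 CPM with Pdcd1 alone and 95.6 (56.7 to 151) and 70.9 (44.9 to 106) CPM with Havcr2 alone, where it rests on 18 and 23 UMIs.

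Some costimulatory receptors were higher in members. Tnfrsf9, which encodes 4-1BB, a receptor induced by antigen, had 7.2 (6.02 to 8.65) and 3.01 (2.61 to 3.48), Cd27 3.98 and 2.29, and Tnfrsf4, which encodes OX40, 2.17 and 3.37. These were 3 of 10 listed genes at least 2-fold higher in both libraries. Cd226, an activating receptor that shares ligands with TIGIT, had 0.53 and 0.50. Of the chemokine genes, Ccl3 had 10.1 (8.98 to 11.4) and 1.69 (1.43 to 2.0), Ccl4 2.39 and 1.42, and Ccl5 1.79 and 0.91, so none of 5 tested was 2-fold higher in both libraries.

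Some homing and memory genes were lower. Of 13 tested, 3 were at least 2-fold lower in both libraries. These were Ly6c2 (0.196 and 0.107), a surface protein of memory and circulating CD8 T cells, Cxcr3 (0.19 and 0.22), a receptor for interferon-induced chemokines, and Itgae (0.22 and 0.35), which encodes the CD103 integrin of cells lodged in epithelium. Cxcr6, a chemokine receptor of tumor-resident T cells, had 1.38 and 1.34. Interferon-stimulated genes had median ratios of 0.499 and 0.724 over 14 tested, with Ifit1 at 0.22 and 0.66 and Isg15 at 0.40 and 0.70. Of these 14, Iigp1 (0.39 and 0.20) was at least 2-fold lower in both libraries.

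Across all genes with at least 100 UMIs in members, ratios were ranked by the smaller of the 2 libraries' values on the log2 scale. The highest were Gzmc, Rgs16 (7.53 and 4.15), a regulator of G protein signalling, Nrgn (6.88 and 3.46), Prf1, Dusp4 (6.41 and 3.31), a phosphatase that restrains MAP kinases, Klri2, Tnfrsf9, Mcpt1, Zbtb32 (6.49 and 2.83), a transcriptional repressor, and Tnfsf11, which encodes RANKL. Mcpt1, a mast cell protease, rests on single cells, which held 99.7% of its UMIs in sensitive and 87.4% in resistant members. A second ranking, limited after the values had been seen to genes found in at least 10% of thinned members or of thinned double-negative cells of a library, added Tox, Hilpda (2.71 and 3.33), a lipid droplet protein induced by hypoxia, Ifng and Nrn1 (11.7 and 2.61). In that ranking the lowest were Ly6c2, Ly6c1 (0.30 and 0.19), Itgb7 (0.33 and 0.27), an integrin chain of gut homing, and Ly6a (0.38 and 0.26), and Slfn1, Slfn5, Plac8, Emb, Rgs10 and Gadd45g lay between 0.32 and 0.51. Itgb7, Emb, Slfn5 and Gadd45g reached the 10% in double-negative cells alone, the cells in which they were higher, and Slfn5 was found in 2.09% and 4.90% of thinned members. Likewise Nrn1, Nrgn, Dusp4 and Zbtb32 reached the 10% in members alone, the cells in which they were higher. Without the 10% limit, the fibroblast genes Col1a1, Rarres2, Col1a2 and Sparc stood among the lowest 10 too.

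Members were next compared between sensitive and resistant tumors. Sensitive members had higher levels of the chemokine genes Ccl3, Ccl4 and Ccl5, of Prf1 and Gzmb, and of the inhibitory receptor genes Lag3 and Ctla4, while the ratio of Tox was close to 1. Over 5332 genes with at least 50 UMIs in members of both libraries together, 249 genes, or 4.67%, were at least 2-fold higher in sensitive members and 51 genes, or 0.956%, at least 2-fold lower. The median ratio was 1.11, a shift of 0.15 on the log2 scale, and ratios are given as measured. Scaled by that median, 182 genes were at least 2-fold higher and 72 lower. Of the 249 genes, 196 were found in under 10% of thinned members in both libraries. Among the 2693 genes found in at least 10% of one library or both, a limit that a gene can pass through the library where it is higher, 53 genes, or 1.97%, were at least 2-fold higher and 22 genes, or 0.817%, at least 2-fold lower.

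Chemokine genes had the highest median ratio of the T cell gene lists, at 2.64 (1.57 in double-negative cells), with 4 of 7 genes at least 2-fold higher in sensitive members and 2 at least 2-fold lower. Ccl3 (ENSMUSG00000000982, chromosome 11, 83647844 to 83649355, minus strand), a ligand of the chemokine receptor CCR1, reached 1545 (1476 to 1617) CPM in sensitive and 229 (203 to 256) CPM in resistant members. It was found in 46.6% and 20.1% of thinned members, and the ratio was 6.76 (5.98 to 7.66). In double-negative cells the same ratio was 1.13 (0.955 to 1.33). With Pdcd1 alone Ccl3 reached 469 and 133 CPM, and with Havcr2 alone 935 and 308 CPM, the higher again in sensitive cells. Macrophages also express Ccl3, which was found in 22.8% and 29.3% of macrophage-gated cells. Without the mixed members the ratio was 8.08, and as a mean over cells it was 5.81. A single member held 20.4% of the sensitive and 19.1% of the resistant Ccl3 UMIs.

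Ccl5 (ENSMUSG00000035042, chromosome 11, 83525778 to 83530518, minus strand), a chemokine made by effector and memory CD8 T cells, reached 12940 (12738 to 13144) and 3584 (3482 to 3688) CPM. Its median was 40.5 UMIs per sensitive and 5 per resistant member. The ratio was 3.61 (3.49 to 3.73) in members and 1.84 (1.79 to 1.90) in double-negative cells. With Pdcd1 alone Ccl5 reached 5826 and 2551 CPM, and with Havcr2 alone 8664 and 5080 CPM. Ccl4 reached 3723 and 1411 CPM, a ratio of 2.64 (2.50 to 2.79) against 1.57 in double-negative cells. With Pdcd1 alone it reached 2442.5 and 971 CPM, and with Havcr2 alone 3798 and 1035 CPM. The fourth higher chemokine gene, Ccl9, had only 73 and 3 UMIs. The chemokines lower in sensitive members were Ccl1, a CCR8 ligand, with 17 UMIs in 10 sensitive and 266 UMIs in 24 resistant members, of which 114 came from 1 cell, and Cxcl10, an interferon-induced CXCR3 ligand, with 9 and 42 UMIs. Xcl1, a ligand of XCR1 on dendritic cells, had 277 and 470 UMIs and stood at 0.64 (0.55 to 0.74), beside 0.52 in double-negative cells. Its direction was not stable, at 1.18 without mixed members, 1.03 without predicted doublets, 1.03 at 3000 to 10000 UMIs and 1.22 in members with at least 2 UMIs each of Pdcd1 and Havcr2. In those last members Ccl4 had 1.91.

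Perforin and granzyme B followed the same direction as Ccl3. Prf1 (ENSMUSG00000037202, chromosome 10, 61297833 to 61304680, plus strand) reached 651 (606 to 698) CPM in sensitive and 198 (175 to 224) CPM in resistant members. The ratio was 3.28 (2.85 to 3.79), against 1.26 (0.982 to 1.63) in double-negative cells, and Prf1 was found in 57.1% and 28.4% of thinned members. A single member held 16.2% of the sensitive and 5.41% of the resistant Prf1 UMIs. With Pdcd1 alone Prf1 reached 194 and 76.2 CPM, and with Havcr2 alone 499 and 126 CPM. Prf1 was thus the higher in sensitive cells of those classes too. Gzmb (ENSMUSG00000015437, chromosome 14, 56258838 to 56262260, minus strand) reached 2892 (2797 to 2990) and 837 (788 to 888) CPM, a ratio of 3.46 (3.23 to 3.70), against 1.63 (1.52 to 1.74). Gzmb was found in 67.0% and 37.7% of thinned members, with a median of 5 UMIs per sensitive and 1 per resistant member. It was also the higher in sensitive cells with Pdcd1 alone (980 and 336 CPM) and with Havcr2 alone (3347 and 1223 CPM). In fibroblast-gated cells Gzmb was found in 0.257% and 0.173% and Prf1 in none of 778 and 579, which allows up to 0.386% and 0.518%.

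Of 11 cytotoxic genes tested 4 were at least 2-fold higher in sensitive members and none lower, with a median ratio of 1.40 (1.48 in double-negative cells). Besides Prf1 and Gzmb they were Gzmk, a granzyme of memory-like cells, at 2.04 (1.68 to 2.49) against 2.43 in double-negative cells, and Gzmc. Gzmk had 1.83 scaled by the median ratio and 1.78 at no more than 5% mitochondrial UMIs. Gzmc, with 96.6% of its sensitive UMIs in 1 cell, turned to 0.0242 at 3000 to 10000 UMIs and to 0.130 without Trbv14+ members (cells with a UMI of the T cell receptor beta segment Trbv14), so Prf1 and Gzmb alone of the 4 stayed at least 2-fold higher under each alternative. The lowest ratios were those of Serpinb9 (0.76, 0.49 to 1.17), a granzyme B inhibitor, and Ctsw (0.88, 0.79 to 0.98). Among cytokine genes, Ifng reached 729 (682 to 779) CPM in sensitive and 351 (320 to 385) CPM in resistant members, a ratio of 2.08 (1.85 to 2.33), with 1.77 in double-negative cells. Csf1, the growth factor of macrophages, counted 364 UMIs against 180, a ratio of 2.18 (1.82 to 2.62), against 0.75 in double-negative cells. These were the 2 of 6 tested cytokine genes at least 2-fold higher, and none was at least 2-fold lower. Csf1 had 1.82 without Trbv14+ members, and Ifng 1.78 in members with at least 2 UMIs each of Pdcd1 and Havcr2. Scaled by the median ratio Ifng and Csf1 had 1.87 and 1.96, and Batf and Tbx21, described among the transcription factors, 1.94 and 1.82. Tnf (0.86, 0.57 to 1.28) and Tnfsf10 (0.67, 0.50 to 0.89), a death ligand, had the lowest ratios.

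**Figure D3:**
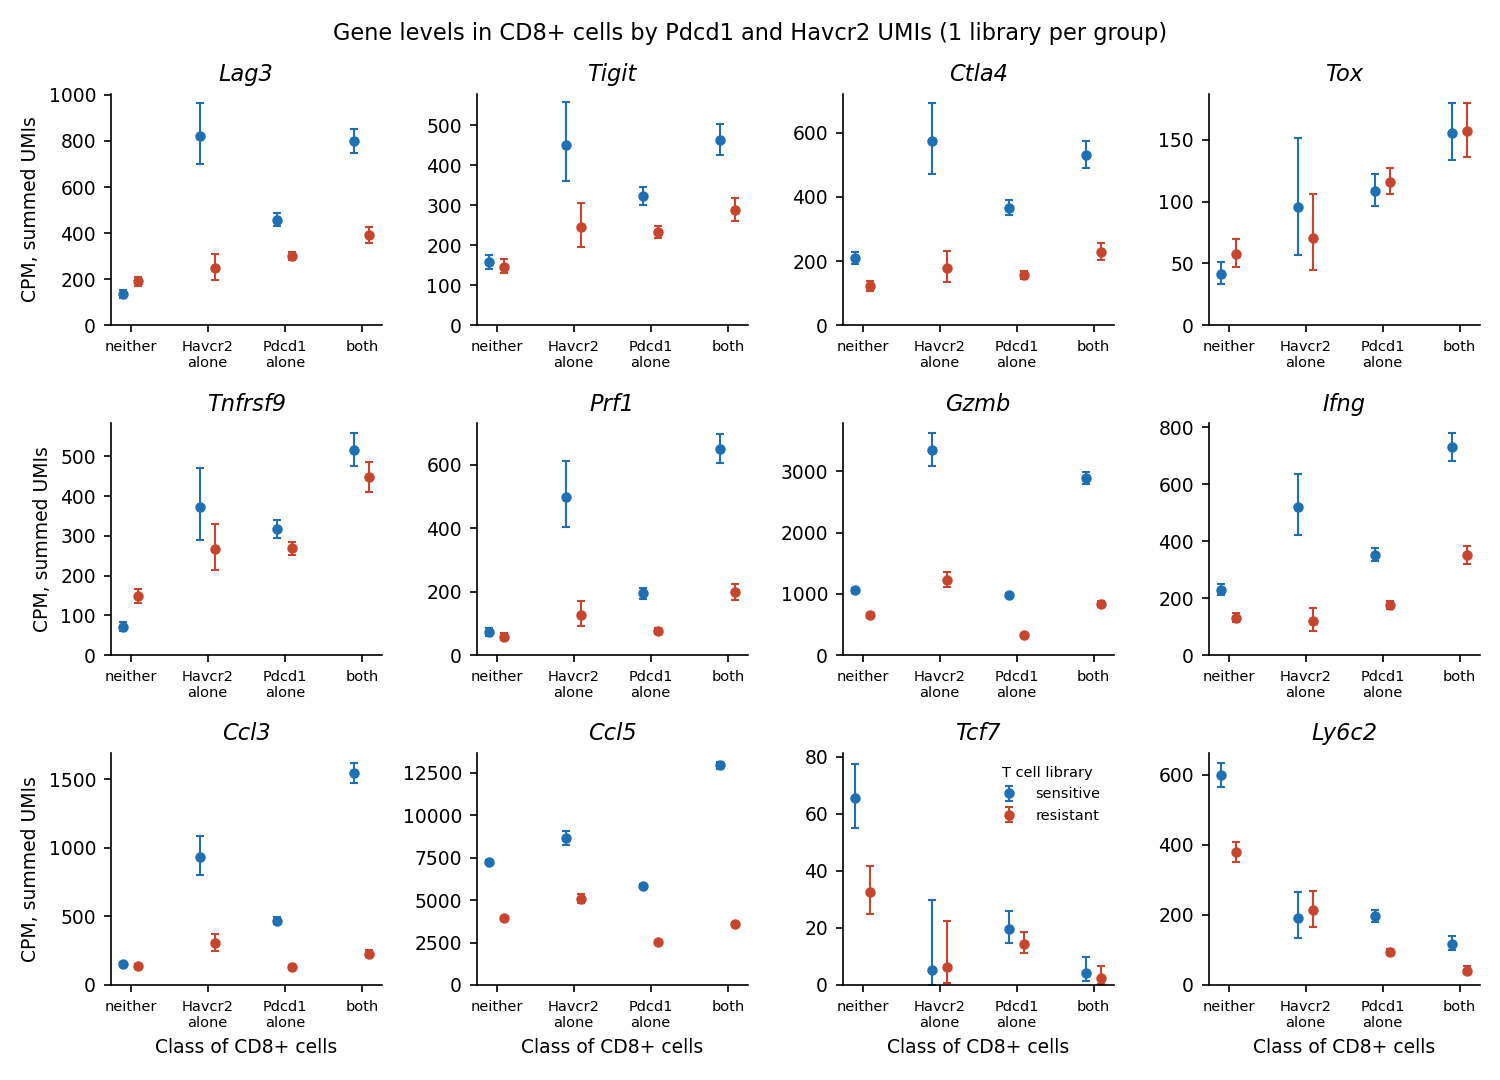
Levels of 12 genes (y axis, CPM from UMIs summed over the cells of a class) in CD8+ cells with neither Pdcd1 nor Havcr2, with 1 of them alone, or with both (the members), in the sensitive and the resistant library, each 1 library; bars are exact 95% Poisson intervals. Ccl3 stands at 1545 CPM in sensitive members and 229 CPM in resistant members, whereas Tox stands at 155 and 157 CPM. Tcf7 stands at 4.13 and 2.29 CPM in members, within the intervals of cells with Havcr2 alone.

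Of 13 inhibitory receptor genes, Lag3 and Ctla4 were at least 2-fold higher in sensitive members and none was lower, with a median ratio of 1.37 (1.07 in double-negative cells). Lag3 counted 968 and 513 UMIs, a ratio of 2.04 (1.83 to 2.27), whereas in double-negative cells it was the lower in sensitive tumors, at 0.71 (0.61 to 0.83). It was the higher in sensitive cells with Havcr2 alone, at 823 and 250 CPM, and with Pdcd1 alone, at 459 and 300 CPM, as in members. The ratio in members was under 2 when scaled by the median ratio (1.83), in members with at least 2 UMIs each of Pdcd1 and Havcr2 (1.91) and without Trbv14+ members (1.95). Ctla4 (ENSMUSG00000026011, chromosome 1, 60887000 to 60915832, plus strand) counted 643 and 301 UMIs, a ratio of 2.31 (2.01 to 2.65). It was also the higher in sensitive tumors in double-negative cells, at 1.72 (1.47 to 2.02), and in cells with Pdcd1 alone, at 366 and 156 CPM. Tigit (ENSMUSG00000071552, chromosome 16, 43648867 to 43664146, minus strand) counted 562 and 378 UMIs, a ratio of 1.61 (1.41 to 1.83), against 1.07 in double-negative cells. With Pdcd1 alone it reached 323 and 233 CPM, and with Havcr2 alone 452 and 246 CPM. Lag3 was found in 68.6% and 47.1% of thinned members, Tigit in 63.9% and 37.3%, and Ctla4 in 53.9% and 28.4%. Cd200 (0.73, 0.54 to 0.99) had the lowest ratio, followed by Cd200r1 and Cd160, both at 0.94 with intervals that include 1.

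Transcription factors were less even. Maf (ENSMUSG00000055435, chromosome 8, 115682942 to 115707794, minus strand), which encodes c-MAF, a regulator of coinhibitory receptor genes, had 97 UMIs in 44 sensitive members and 15 UMIs in 10 resistant members. Its ratio was 6.98 (4.03 to 13.0), and 1.32 (0.77 to 2.29) in double-negative cells. With Pdcd1 alone Maf reached 34.4 and 15.0 CPM, and with Havcr2 alone 127 and 12.3 CPM from 24 and 4 UMIs. It was thus the higher in sensitive cells of those classes too. Maf was found in 15.2% of thinned sensitive and 0.490% of thinned resistant members. Prdm1 (93 and 36 UMIs) had a ratio of 2.79 (1.88 to 4.22), Batf (158 and 79 UMIs), an AP-1 factor, of 2.16 (1.64 to 2.87), and Tbx21 (126 and 67 UMIs), which encodes T-bet, of 2.03 (1.5 to 2.77). With Maf these were the 4 genes of 15 tested at least 2-fold higher, and none was lower. In double-negative cells Prdm1 had 0.82 (0.46 to 1.44), Batf 1.46 and Tbx21 1.74, and in members with at least 2 UMIs each of Pdcd1 and Havcr2 Batf had 1.69 and Tbx21 1.64. Tox had a ratio of 0.99 (0.81 to 1.21), Eomes 1.00 (0.63 to 1.59) and Ikzf2 0.78 (0.59 to 1.05).

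Other receptors of activated cells varied by family. Icos (ENSMUSG00000026009, chromosome 1, 60977927 to 61000320, plus strand), a costimulatory receptor, reached 459 (422 to 499) and 142 (123 to 164) CPM, a ratio of 3.23 (2.73 to 3.83), and was 2.48 in double-negative cells. Tnfrsf4 had 2.68 (2.04 to 3.55), with 4.16 in double-negative cells, whereas Tnfrsf9 had 1.16 (1.03 to 1.30) and Cd7 0.69 (0.49 to 0.96). No cytokine receptor of 11 tested and no killer lectin-like receptor of 5 was 2-fold different, with medians of 1.20 and 1.33. Among homing genes 4 of 12 were at least 2-fold higher and none lower. They were Ccr2 (86 and 32 UMIs), a receptor of monocyte-attracting chemokines, at 2.90 (1.91 to 4.50), Ly6c2 (142 and 53 UMIs) at 2.89 (2.10 to 4.04), Cxcr4 (41 and 16 UMIs) at 2.77 and Cxcr3 (43 and 22 UMIs) at 2.11. All 4 were also higher in sensitive double-negative cells, at 4.10 (2.92 to 5.87) for Ccr2, 1.58 for Ly6c2, 1.92 for Cxcr4 and 2.45 for Cxcr3. Cxcr4 had 1.59 without Trbv14+ members, 1.71 without predicted doublets and 1.73 at 3000 to 10000 UMIs. Cxcr3 had 1.75 as a mean over cells, 1.90 scaled by the median ratio and 1.95 at 3000 to 10000 UMIs. In members with at least 2 UMIs each of Pdcd1 and Havcr2, Ccr2 had 1.76 and Tnfrsf4 1.65. Of the 4 homing genes, Ly6c2 was at least 2-fold higher under each alternative. Itgae (0.71, 0.44 to 1.13) and Cd69 (0.71, 0.61 to 0.83), a marker of recent activation and residency, were lowest.

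Among the remaining lists few genes reached 2-fold between sensitive and resistant members. Of 11 glycolysis and hypoxia genes none did, and the median ratio was 1.48 (1.22 in double-negative cells), with Gapdh highest at 1.85 (1.60 to 2.15). No gene of the immediate early (12 tested), T cell receptor signalling (12) or Bcl2 and p53 (10) lists did, with medians of 1.24, 1.20 and 1.07. Of 13 interferon-stimulated genes, Iigp1, a GTPase that acts against intracellular parasites, was at least 2-fold higher, with 37 and 18 UMIs, but had 1.46 without predicted doublets and 1.19 as a mean over cells, and Ifit1 (0.62, 0.40 to 0.95) and Ifit3 (0.64, 0.40 to 0.99) had the lowest ratios. Of 12 stress genes Hspa1a (0.32, 0.18 to 0.54), and of 9 cell cycle genes outside the definition Stmn1 (0.46, 0.30 to 0.69), which encodes a tubulin-binding protein of dividing cells, were at least 2-fold lower. Stmn1 had 0.68 at no more than 5% mitochondrial UMIs. Among naive and progenitor-like genes Id3 had 75 and 12 UMIs, and its ratio of 6.75 became 0.293 among members of 3000 to 10000 UMIs and 1.23 without mixed members.

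Lower in sensitive members, Sms, which encodes spermine synthase, counted 76 and 234 UMIs, a ratio of 0.351 (0.267 to 0.456), and had 0.63 in double-negative cells. Car2, a carbonic anhydrase, had 0.43 (0.29 to 0.64) and Tcrg-C2, a constant gene of the gamma T cell receptor chain, 0.48 (0.38 to 0.60), close to the 0.45 and 0.46 of double-negative cells. Tcrg-C2 had 0.62 among members of 3000 to 10000 UMIs. The ribosomal protein genes Rpl35, Rpl38, Rpl36a, Rps28 and Rps29 had ratios of 0.45 to 0.49, and 0.55 to 0.59 in double-negative cells, so that difference ran through the CD8+ cells of the libraries. Ribosomal protein genes have many near-identical pseudogenes, and their counts depend on how such reads were assigned. Bcl3 (4.37, 2.71 to 7.32; found in 13.1% of sensitive and 1.47% of resistant thinned members), an NF-kappaB cofactor, and the unnamed gene model Gm20400 (4.06, 2.86 to 5.87) were higher in sensitive members and also in double-negative cells, at 2.58 and 2.16.

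**Figure D4:**
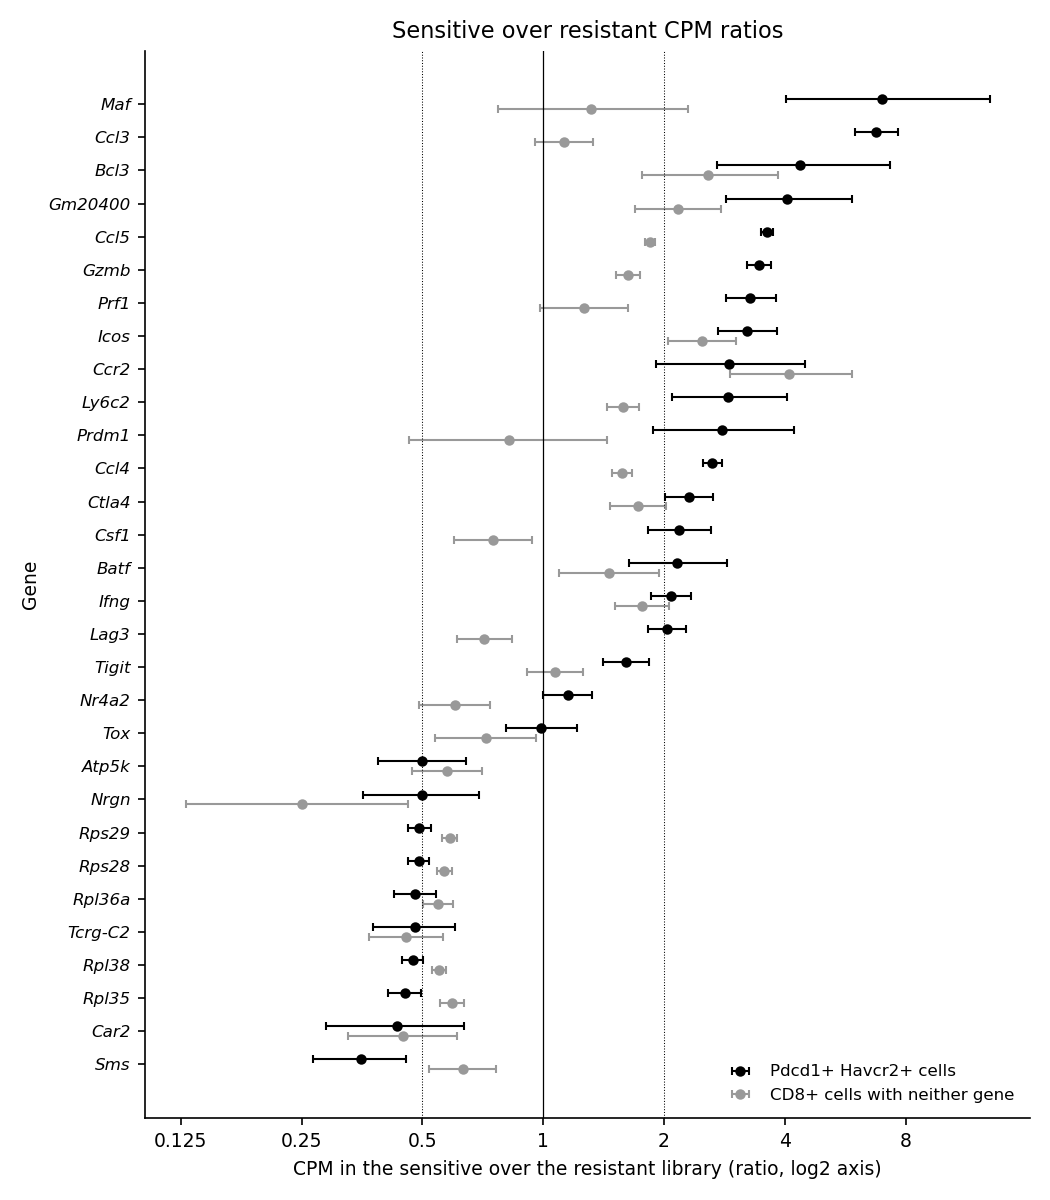
Ratio of CPM in the sensitive over the resistant library (x axis, log2 scale) in Pdcd1+ Havcr2+ cells (black) and in CD8+ cells with neither gene (grey), with exact 95% intervals that cover counting error; the 10 highest and 10 lowest genes found in at least 10% of members of 1 or both libraries and 10 listed genes are shown, and dotted lines mark 2-fold. Lag3 stands at 2.04 in members and at 0.71 in cells with neither gene, Ccl3 at 6.76 and 1.13, and the ribosomal protein genes lie below 1 in both.

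Traces of other cells and the mitochondrial share differed with the library, and their part in the results was not tested beyond the values given here. With at most 5% mitochondrial UMIs (189 and 91 members), Ccl3 had a ratio of 9.99, Ccl5 4.59 and Gzmb 2.85. Markers of macrophages and dendritic cells were at least 2-fold higher in sensitive members for 7 of 8 tested genes, with summed levels of 2624 CPM in sensitive and 772 CPM in resistant members. A single sensitive cell held 51.4% of those UMIs, 31.4% of sensitive and 57.8% of resistant members had any, and none of the 10 genes was at 0. Neutrophil markers summed to 77.6 and 757 CPM (6 genes, with Retnlg and Cxcr2 at 0 in sensitive members), fibroblast markers to 1340 and 759 CPM (6 genes), and cancer cell markers to 333 and 32.9 CPM (6 genes, with Krt14 at 0 in resistant members). A single sensitive cell held 94.8% of the cancer cell marker UMIs, and 7.73% of sensitive and 10.7% of resistant members had any. The highest cell held 42.6% and 47.3% of the neutrophil and 22.1% and 51.2% of the fibroblast marker UMIs in sensitive and resistant members. Genes of regulatory, helper and gamma-delta T, natural killer and B cells summed to 73.5 and 29.8 CPM, with the B cell genes Cd79a and Ms4a1 at 0 in both and Foxp3 at 26 and 2 UMIs.

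The 10 highest ratios without the 10% limit rest on few cells. Among them were Myl9, Acta2, Sparcl1, Mustn1, Fabp4, Mmp12, Thbs1, Tpm2 and Eln, genes of contractile, matrix, endothelial and myeloid cells, each found in at most 5 sensitive members. The lowest 10 held S100a9, S100a8, Cma1, Mcpt2, Cpa3 and Mcpt1, genes of neutrophils and mast cells, each found in at most 13 resistant members, beside Ccl1, Sms, Car2 and Rpl35. Without the mixed members 121 genes were at least 2-fold higher in sensitive members, 82 of them among the 249, and 47 were lower. Without them the ratio was 7.11 for Maf, 3.72 for Prf1, 3.44 for Gzmb, 4.01 for Ccl5, 2.23 for Lag3, 2.63 for Ctla4 and 3.66 for Icos. Others moved or turned, to 1.18 for Xcl1, 1.23 for Id3 and for Iigp1, 0.614 for Acta2 and Tpm2, and 0 for Eln and Mmp12.

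Receptor variable segments, which the definition did not use, differed between the libraries. A Trbv segment was found in 90.2% of sensitive and 85.0% of resistant members. Trbv14 was found in 63 of 194 sensitive members, or 32.5% (25.9 to 39.6), and in 7 of 206 resistant members, or 3.40% (1.38 to 6.88). In sensitive tumors it was found in 16.9% (13.7 to 20.4) of cells with Pdcd1 alone and 6.13% (4.26 to 8.51) of double-negative cells, and in resistant tumors in 5.37% and 6.40%. Trbv13-2 was the most frequent segment of members in both libraries, at 37.1% (30.3 to 44.3) and 23.8% (18.1 to 30.2), and Trbv19 was found in 5.67% and 15.0%. Closely related segments can share reads, and 54.1% of sensitive and 63.1% of resistant members showed exactly 1 Trbv segment.

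Alpha chain segments differed as well. Sensitive members had Trav4-3 in 10.8% (6.83 to 16.1) of cells and resistant members in 2.43% (0.793 to 5.57), and Trav4-2 was found in 11.9% (7.67 to 17.3) and 0.485%. Trav3-3 was found in 2.58% (0.842 to 5.91) and 15.5% (10.9 to 21.2), Trav5-1 in 1.03% and 10.7%, and Trav16d-dv11 in 13.9% and 16.5%. Of the 63 Trbv14+ sensitive members, 18, or 28.6%, also had Trav4-3, while among the 131 other sensitive members the most frequent alpha segment was Trav16d-dv11, in 19.8%. As tumors were pooled, the labels do not show how many mice a segment came from.

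Among sensitive members, the ratio of Trbv14+ over other members was 1.06 (0.96 to 1.17) for Ccl3, 1.02 (0.99 to 1.06) for Ccl5, 1.25 (1.07 to 1.45) for Prf1, 1.20 (1.05 to 1.37) for Lag3, 1.28 (0.94 to 1.74) for Tox, 0.65 (0.60 to 0.70) for Gzmb, 0.77 (0.66 to 0.90) for Ifng and 0.62 (0.51 to 0.76) for Tnfrsf9. Of these genes, the last 3 were lower in Trbv14+ members. Over 3319 genes tested, 169, or 5.09%, were past 2-fold between Trbv14+ and other members. Further named genes that differed were Gzma at 0.49 (0.43 to 0.55), Rgs16 at 1.79 (1.49 to 2.16) and Maf at 1.73 (1.13 to 2.63). Without Trbv14+ cells in either library, the sensitive over resistant ratio was 4.4 for Gzmb, 2.40 for Ifng, 6.75 for Ccl3, 3.10 for Prf1 and 1.95 for Lag3, and the share of members with at least 2 of the 6 receptor genes was 75.2% and 49.2%.

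**Figure D5:**
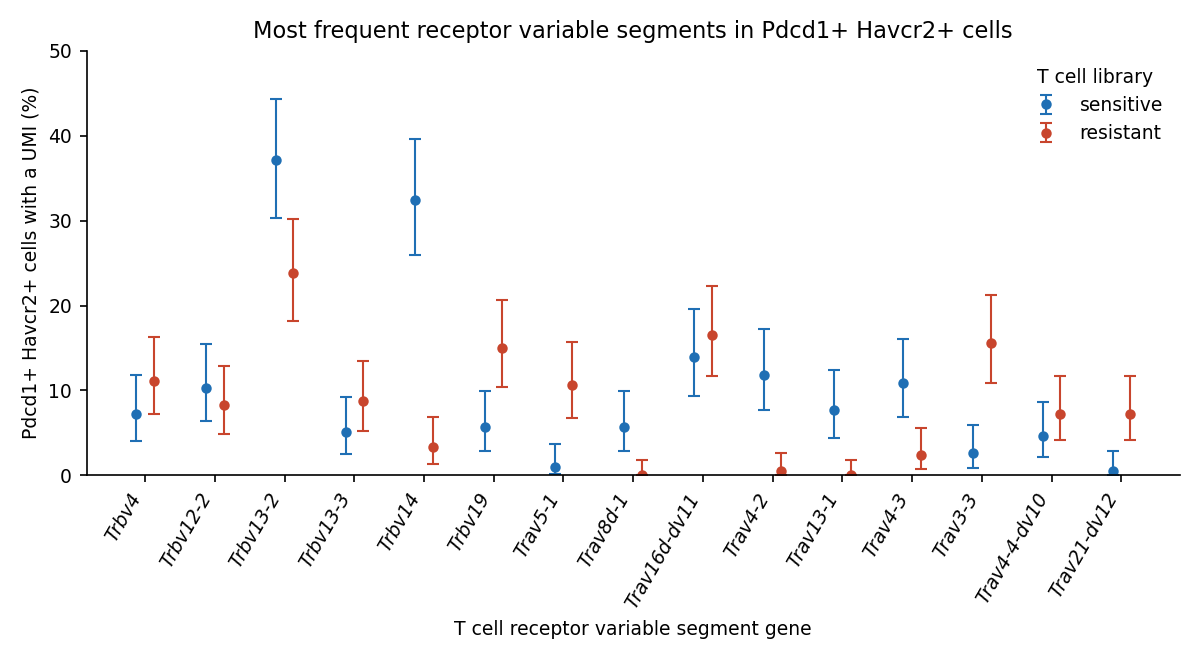
Percent of Pdcd1+ Havcr2+ cells with a UMI of each T cell receptor variable segment (y axis; the most frequent Trbv and Trav genes of either library on the x axis) in the sensitive (194 cells) and the resistant (206 cells) library; bars are 95% Clopper-Pearson intervals. Trbv14 stands at 32.5% of sensitive and 3.40% of resistant members, and Trav3-3 at 2.58% and 15.5%.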

How the data were processed

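Reads were aligned to mm10 (GRCm38) by the authors with Cell Ranger (6.0.0 for the T cell and 3.0.1 for the whole-tumor libraries), who deposited raw UMI counts per gene and barcode. Groups followed the library titles. Members, classes and summed CPM were computed from these counts with Python 3.11.15, NumPy 2.4.6, SciPy 1.17.1 and pandas 2.3.3. The members and gene lists were chosen with earlier results of these data known. Named genes were, per list, the extremes and those the background names, and the 10 highest and 10 lowest ratios of genes with at least 100 UMIs; the ranking of widely found genes and the exclusions of mixed and Trbv14+ cells were added after the values were seen. Coordinates are those of GENCODE M21. Doublets were scored with Scrublet (scanpy 1.11.5) at 0.8% per 1000 cells and kept; 6 sensitive and 8 resistant members were marked, and leaving them out was an alternative. Fibroblast-gated cells had at least 3 of 5 collagen and matrix genes and no Ptprc. The ratio code was tested on simulated data. Results of a few genes are not reported here. Whole-tumor libraries held no members and entered no comparison.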

Additional observations from a re-analysis of the deposited data

Results flagged for a closer look

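Of the genes named that had at least 50 UMIs in the cells compared in each library, 3 differed at least 2-fold in opposite directions when members were compared with double-negative cells within each library, a difference between libraries that was not tested. The ratios in the sensitive and the resistant library were 37.5 and 0.00955 for Mmp12, a macrophage elastase, 4.73 and 0.0140 for Thbs1, which encodes thrombospondin, and 14.8 and 0.0606 for Tpm2, a tropomyosin of contractile cells. In sensitive members these genes were found in 3, 5 and 3 cells, and the cell with most UMIs held 82.7%, 29.6% and 98.5% of them. In resistant members each had 2 UMIs.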

How the results depend on the processing

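Of 195 named sensitive over resistant ratios, 130 stayed on their side of 1 under each alternative that gave a value, among them those of Ccl3, Ccl5, Gzmb, Prf1, Icos, Maf, Lag3, Ctla4, Tigit and Sms. The share ratio of members was 1.27, and 1.72 at 1000 UMIs per cell, the one setting outside its interval. Genes at least 2-fold higher in sensitive members numbered 249, and 653 with a minimum of 20 UMIs, 55 with 200, 116 among members of 3000 to 10000 UMIs and 121 without mixed cells; those lower numbered 51, and 148 with 20 UMIs, 23 with 200 and 31 at 5% mitochondrial UMIs. Against double-negative cells, 51 genes were higher (95 with 20 UMIs) and 87 lower (173 with 20 UMIs, 47 at 3000 to 10000 UMIs, 34 without mixed cells). Members with at least 2 receptor genes were 76.4% and 49.5%, 96.9% and 85.0% without thinning, and 48.5% and 25.2% at 1000 UMIs. Ratios at least 2-fold that crossed 1 were, among members of 3000 to 10000 UMIs, Fabp4 (0), Cpa3 (1.01), Gzmc (0.0242), Id3 (0.293), Mcpt1 (1.81) and Mcpt2 (1.62); without mixed cells, Acta2 (0.614), Tpm2 (0.614), Eln and Mmp12 (0 each); without Trbv14+ members, Acta2 (0), Fabp4 (0), Gzmc (0.130) and Tpm2 (0.750). Each rests on few cells or few UMIs; smaller ratios that crossed 1 are not listed. Library scaling by the median ratio left 182 higher and 72 lower genes. No paired analysis was possible because each group was 1 library.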

Other observations

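The 3 whole-tumor libraries held no cell that met the definition. Among kept barcodes there were 8 CD8+ cells in the library titled resistant, none in the one titled sensitive and 10 in the control, of 248, 168 and 354 kept barcodes, and Havcr2 was found in none of these CD8+ cells. A count of 0 allows shares of up to 1.21%, 1.79% and 0.847% of kept barcodes. In the source label, the library titled resistant is described as coming from a sensitive tumor.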
